A study of Mus musculus with 96 samples.

Results

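The 6 transcripts of chloride transport followed here along the mouse nephron were Bsnd (ENSMUSG00000025418), which encodes barttin, Clcn2 (ENSMUSG00000022843), Clcn3 (ENSMUSG00000004319), Clcn4 (ENSMUSG00000000605), Cftr (ENSMUSG00000041301) and Ano1 (ENSMUSG00000031075). They were taken by gene symbol from the deposited TPM table, whose unit is scaled for transcript length and for the total of each library, and are 6 of its 54532 genes. Glomeruli (GL) and 14 tubule segments were dissected by hand from kidneys of male C57BL/6 mice aged 6 to 8 weeks, with no treatment named in the labels. The 93 libraries came from 53 mice, counted as mouse number within a segment, and the labels do not say whether a number names the same animal in different segments. The proximal tubule was sampled at its start (PTS1), in the cortical medullary rays (PTS2) and in the outer stripe of the outer medulla (PTS3). The descending thin limb was sampled in short loops (DTL1) and in long loops in the outer medulla (DTL2) and inner medulla (DTL3). ATL is the ascending thin limb, and MTAL and CTAL are the thick ascending limb of medulla and cortex. DCT is the convoluted part of the distal tubule and CNT the connecting tubule. CCD, OMCD and IMCD are the collecting duct of cortex, outer medulla and inner medulla. There were 5 mice each in PTS2, CTAL and CCD, 4 each in ATL and OMCD, and 3 in each other group. Nothing in the labels says that pieces of 1 mouse were separate preparations, so pieces were averaged and the mouse was the replicate.

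Chloride crosses kidney epithelia through several unrelated protein families. Barttin is an accessory subunit needed for chloride conductance of the basolateral membrane, and its loss in people causes salt wasting with deafness. ClC-2 is a plasma membrane channel opened by hyperpolarization, while ClC-3 and ClC-4 exchange chloride for protons on endosomes and can assemble with each other. CFTR is an anion channel gated by cyclic AMP signalling and ATP, and anoctamin 1 (Ano1, also called TMEM16A) is a chloride channel opened by calcium, known from smooth muscle, pericytes and secretory epithelia.

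Some groups stood apart from the rest in rare transcripts. Odorant and vomeronasal receptor genes, 1979 in the table and not known for a role in most of these cells, reached 1 TPM in 753 to 916 genes per mouse in DTL1, 443 to 889.5 in GL, 504 to 551 in DTL3, 295 to 389 in DTL2 and 93.5 to 258.5 in OMCD. In ATL they numbered 20 and 33 in mice 3 and 2 but 601 and 703 in mice 4 and 6, and in the 9 other groups no mouse had more than 53. Their 95th percentile in each mouse (up to 11.2 TPM in DTL1) is given below as a background level for low values. Every defining marker fixed for the glomerulus, the thick limb, DCT, the collecting duct (principal cells) and the descending limb had a mean of 1 TPM or more in the groups so labelled. In PTS3 the 4 proximal markers summed to 75.8 to 88.8 TPM, against 6618 to 9994 in PTS1 and PTS2, and in ATL the 3 thin limb markers summed to 87.7 to 215 TPM, against 4130 to 12275 in the descending limbs. Rescaling shifted the median of all genes by -0.37 (DTL1) to 0.27 (PTS1) on the log2 scale with median ratios and by -0.87 (DTL1) to 0.41 (PTS3) with quantile normalization, and calls of named contrasts that this changed are given beside them.

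All 6 genes varied among the 15 groups by the limma F-test on log2(TPM + 1) with Benjamini-Hochberg adjustment, as did 93.9% of the 33793 genes tested, so that count is no mark of these genes. The adjusted p ranged from 1.76e-44 for Bsnd to 1.51e-08 for Clcn2. What set Bsnd and Ano1 apart was the width of their range. Between the highest and lowest group mean, Bsnd spanned 11.01 and Ano1 7.37 log2 units, which placed them at the 99.8th and 98.0th percentile of all genes tested. Clcn2 spanned 3.30, Clcn3 2.40, Cftr 1.73 and Clcn4 1.64 log2 units, at the 80.6th, 61.7th, 37.7th and 34.2nd percentile. A gene was called higher in 1 group when its adjusted p over the contrasts with every other group was under 0.05 and the smallest difference was at least 1 log2 unit. By that rule Bsnd was called in ATL, as were 0.394% of genes, and Ano1 in GL, as were 3.22%. Of the rest, Clcn2 had its highest mean in PTS2, Clcn3 in CCD, Clcn4 in GL and Cftr in PTS1, and none of these 4 was called over its nearest group (the background was 0.257% for PTS2, 0.0207% for CCD and 0.544% for PTS1). With median ratio rescaling Clcn3 was no longer highest in CCD (margin -0.34) nor Clcn4 in GL (margin -0.99).

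**Figure D1:**
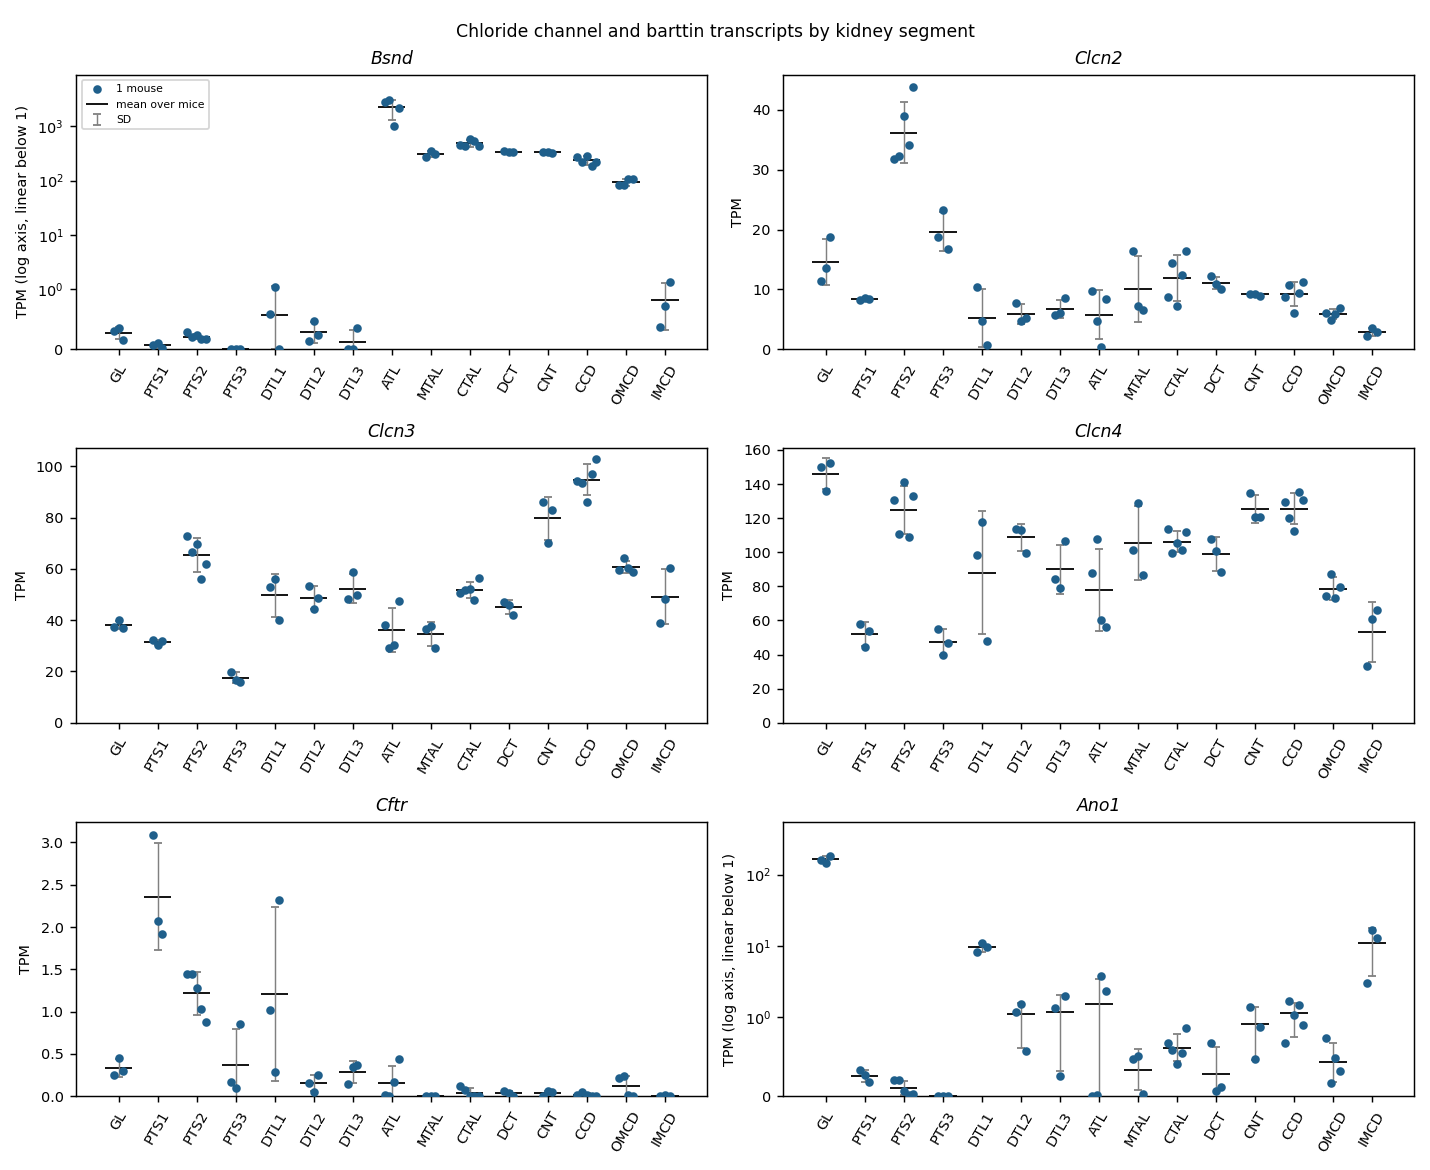
TPM of the 6 genes in glomeruli (GL) and 14 tubule segments in order along the nephron. Points are mice, bars are means and whiskers SD, and the Bsnd and Ano1 axes are logarithmic above 1 TPM. Bsnd sits between 81.5 and 3024 TPM from ATL to OMCD and at 1.36 TPM or less elsewhere, Ano1 is highest in GL (147 to 186 TPM), and Clcn4 and Clcn3 are above 15 TPM in every mouse.

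Bsnd was high from ATL to OMCD, while IMCD and the groups upstream of ATL were almost without it. From GL to DTL3 no mouse exceeded 1.11 TPM, and all 3 PTS3 mice were listed at 0. In GL, PTS1, DTL1, DTL2 and DTL3 0 mice exceeded the receptor 95th percentile of their own library. All 3 IMCD mice exceeded it (0.37 to 1.36 TPM, against receptor levels of 0.123 to 0.453). All 5 PTS2 mice did as well, where that level was 0.02 TPM or less. In ATL the 4 mice held 2780, 3024, 1011 and 2149 TPM (mice 2, 3, 4 and 6), a mean of 2241 ± 899 (SD, n = 4). Mouse 4 was the lowest of the 4 and still above every library of another segment. In these bulk samples a lower level cannot be told apart as fewer cells with the transcript or less of it per cell.

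Each segment downstream of ATL held less barttin transcript than ATL, and CTAL, DCT and CNT had higher means than MTAL. In MTAL the 3 mice held 271, 350 and 306 TPM, and in CTAL the 5 mice held 454, 436, 576, 532 and 428, without overlap. The DCT mice held 348, 337 and 332 TPM and the CNT mice 339, 333 and 329, so these neighbouring segments were nearly equal. CCD mice held 273, 223, 285, 183 and 225 TPM, OMCD mice 81.5, 84.2, 107 and 108, and IMCD mice 0.37, 0.71 and 1.36. No CCD mouse overlapped with OMCD, and no OMCD mouse overlapped with IMCD. ATL exceeded the second highest group, CTAL, by 2.10 log2 units (SE 0.19, limma adjusted p = 1.55e-11 over every other group), and 29.3% of genes were called between that pair in either direction. Without ATL mice 4 and 6, which carried many receptor transcripts, the margin was 2.59. In the order of the 15 means 3 of 14 adjacent steps were called, ATL to CTAL, CCD to OMCD (1.31, SE 0.19, adjusted p = 8.19e-07) and OMCD to IMCD (5.83, SE 0.21, adjusted p = 5.31e-26). The mice of CTAL and DCT also did not overlap, yet their difference of 0.51 was not called (adjusted p = 0.154), and DCT, CNT, MTAL and CCD followed each other with overlapping mice. Quantile normalization called 5 steps. The smallest values, from IMCD down to PTS1, overlapped at every step.

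Intercalated cells are known to use barttin in the collecting system, and their markers moved partly with it. The 5 intercalated markers (proton pump subunits Atp6v1b1 and Atp6v0d2, the factor Foxi1, and the exchangers Slc4a1 and Slc26a4) summed to 5363 to 5771 TPM in CNT, 3845 to 5096 in CCD, 2732 to 3642 in OMCD and 0.29 to 3.74 in IMCD. From OMCD to IMCD all 5 were called lower, as Bsnd and 15.2% of all genes were. From CCD to OMCD, where Bsnd and 1.73% of all genes were called lower and 10.4% higher, Slc26a4 was called lower, Slc4a1 higher and the other 3 neither. From DCT, where they summed to 757 to 856 TPM, to CNT all 5 were called higher, as 3.7% of all genes were. Bsnd was 0.02 log2 units higher in DCT there and was not called. In CTAL the 5 markers summed to 137 to 230 TPM, and in ATL, where Bsnd was highest, to 0.03 to 4.85. The part of cell makeup in these steps was not tested.

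Clcn2, the hyperpolarization-activated plasma membrane channel, was a transcript of moderate level that was most abundant in the later proximal tubule. The PTS2 mice held 31.7, 32.4, 39.0, 34.2 and 43.8 TPM, the PTS3 mice 18.8, 23.3 and 16.8, and the PTS1 mice 8.28, 8.53 and 8.43. The 3 groups did not overlap. PTS2 exceeded PTS1 by 1.98 log2 units (SE 0.40, limma adjusted p = 0.000116), which was called, whereas the step from PTS2 to PTS3 of 0.93 (SE 0.40, adjusted p = 0.147) was not. Pieces of 1 PTS3 mouse differed widely, as mouse 3 gave 25.1 and 8.59 TPM.

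Beyond the proximal tubule Clcn2 stayed between a group mean of 2.87 ± 0.700 TPM in IMCD (n = 3) and 14.6 ± 3.79 in GL (n = 3). IMCD mice held 2.20, 3.6 and 2.82 TPM, the lowest group. DTL1 mice held 10.4, 4.69 and 0.78 TPM and ATL mice 9.67, 4.67, 0.44 and 8.42, so single mice of these groups were the lowest of all 53 while others reached the level of CNT. In DTL1 only 1 of 3 mice exceeded the 95th percentile of receptor genes. No adjacent step in the order of the 15 means was called (0 of 14 by limma at the stated thresholds), and mice did not overlap in 2 of them, PTS2 to PTS3 and CNT to PTS1. With median ratio or quantile scaling 2 steps were called. Over the 14 groups with a mean of at least 5 TPM, the median difference between pieces of 1 mouse was 0.308 log2 units (35 pairs). The median SD between mice of a group, a different measure of spread, was 0.296.

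Clcn3 and Clcn4, the endosomal exchangers, were measured in every mouse of every group, and Clcn4 was the more abundant in 52 of 53 mice. Clcn3 was highest in the cortical distal nephron. Its 5 CCD mice held 94.2, 93.4, 86.0, 96.9 and 103 TPM, the CNT mice 86.0, 70.0 and 83.0, and the PTS2 mice 72.6, 66.7, 69.7, 56.0 and 61.8. At the other end stood PTS1 with 32.2, 30.2 and 31.8 TPM and PTS3 with 19.9, 16.8 and 15.98, and no PTS3 mouse reached the level of any other mouse. The lowest step, PTS1 to PTS3, was 0.84 log2 units (SE 0.14, limma adjusted p = 1.17e-05), under the limit of 1 for a call. No adjacent step in its order was called (0 of 14), and mice did not overlap in 4. Median ratio rescaling called 2.

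Clcn4 ran within a narrow band, from a group mean of 47.2 ± 7.68 TPM in PTS3 (n = 3) to 146 ± 8.86 in GL (n = 3). The GL mice held 150, 136 and 152 TPM, and the 5 CCD mice between 112 and 135 with a median of 129. Low values came from PTS3 (55.0, 39.7 and 46.9), PTS1 (57.7, 44.45 and 53.9) and IMCD (33.3, 61.0 and 65.9), which overlapped. DTL1 was the most uneven group, at 98.6, 118 and 48.1 TPM. Again no adjacent step was called (0 of 14), mice failed to overlap only between GL and CCD, and 1 step was called after median ratio rescaling.

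The ratio of Clcn4 to Clcn3 TPM is given as a description, with no test. It was 3.85 ± 0.394 in GL and 3.06 ± 0.334 in MTAL (n = 3 each), 2.06 ± 0.124 in CTAL (n = 5), 2.20 ± 0.0922 in DCT (n = 3), 1.58 ± 0.135 in CNT (n = 3), 1.33 ± 0.0554 in CCD (n = 5), 1.29 ± 0.0755 in OMCD (n = 4) and 1.07 ± 0.205 in IMCD (n = 3). Upstream it had no single direction, with means of 1.65 (PTS1), 1.92 (PTS2) and 2.69 (PTS3) in the proximal tubule, 2.24 in DTL2 against 1.72 and 1.75 in its neighbours DTL1 and DTL3, and 2.30 in the thin ascending limb. A factor applied to a whole library, such as a median ratio, leaves this ratio as it is, while quantile normalization does not. Values were closest to equal in the collecting duct, where the only mouse with less Clcn4 than Clcn3 was found (IMCD mouse 1, ratio 0.856). In ATL the 4 mice spread from 1.18 to 3.71.

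**Figure D2:**
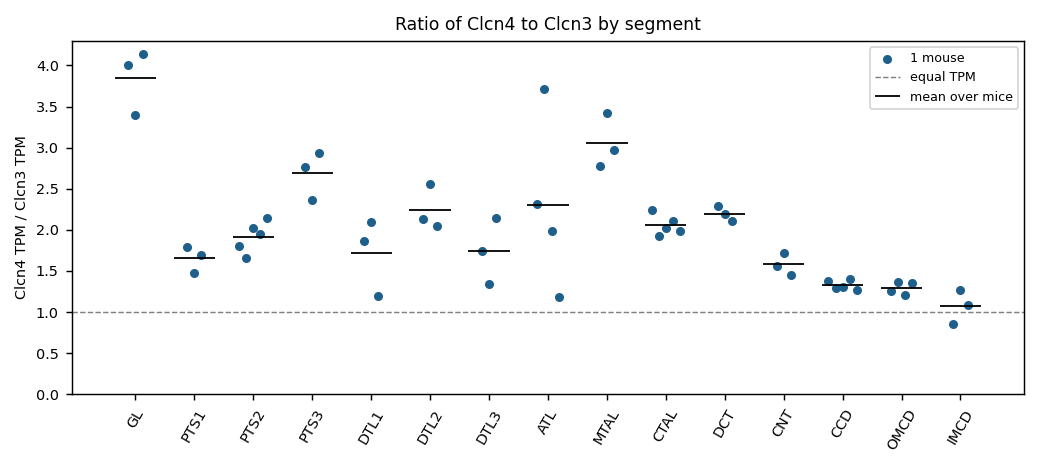
Ratio of Clcn4 to Clcn3 TPM in each mouse, with the mean of each group as a bar and a dashed line at equal TPM. GL and MTAL lie highest at means of 3.85 and 3.06, and CCD, OMCD and IMCD lie lowest at 1.33, 1.29 and 1.07.

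Promoters are shown for both exchanger genes, which were called in PTS2 over PTS1 and over PTS3 (of these 4 calls, only that of Clcn3 over PTS3 held under both rescalings). RefSeq promoter windows (build GRCm38.p6, 250 bases before to 50 after a start) matched 5 of the 6 genes with 7 windows, and none was matched for Bsnd. The letters TGACGTCA, the palindromic cyclic AMP response element, which reads the same on both strands, occurred in 2 of the 7, the first window of Clcn3 (printed part chr8:60983282-60983561, minus strand) and the first of Clcn4 (printed part chr7:7299528-7299807, minus strand). Among all 32851 windows of that length 588 (1.79%) held it. The letters were searched after the sequences had been seen, and the match is a description only. In Clcn3 the element starts 11 bases into the transcribed side and in Clcn4 76 bases before the start. The windows are also rich in CpG, with 38 and 27 CpG pairs and 68.7% and 65.7% G or C. A GC box (GGGCGG, either strand) was present in each, as in 35.7% of windows, and a CCAAT box (CCAAT, either strand) in Clcn3 but not Clcn4, as in 37.4%. No TATAAA was found in either (13.6% of windows). Of each window 280 bases are printed 5′ to 3′ with the element in capitals, through 30 bases after the start.
Clcn3: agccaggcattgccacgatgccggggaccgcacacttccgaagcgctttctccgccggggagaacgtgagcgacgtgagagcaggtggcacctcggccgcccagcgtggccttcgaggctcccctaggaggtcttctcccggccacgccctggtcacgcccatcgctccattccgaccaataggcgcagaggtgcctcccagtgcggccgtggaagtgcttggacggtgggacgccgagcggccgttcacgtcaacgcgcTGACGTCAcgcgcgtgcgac
Clcn4: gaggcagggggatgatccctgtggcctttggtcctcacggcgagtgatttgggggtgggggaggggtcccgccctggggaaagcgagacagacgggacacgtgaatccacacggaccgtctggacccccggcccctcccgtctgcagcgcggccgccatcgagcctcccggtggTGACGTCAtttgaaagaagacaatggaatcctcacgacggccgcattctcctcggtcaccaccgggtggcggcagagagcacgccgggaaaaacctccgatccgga

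Cftr was a rare transcript whose highest mean was in PTS1. The 3 PTS1 mice held 3.09, 2.07 and 1.92 TPM and the 5 PTS2 mice 1.45, 1.45, 1.28, 1.03 and 0.88, without overlap. The 3 PTS1 mice stood above the 95th percentile of receptor genes of their own library (0.34 to 0.58 TPM). In PTS2 that level was 0 to 0.02 TPM and so close to 0 that it sets no useful background. PTS3 mice held 0.17, 0.095 and 0.86 TPM, but 3 of their 6 pieces were listed at 0, and mouse 3 joined pieces of 0 and 1.72 TPM. The receptor level there was 0 in 2 of the 3 mice, so it sets none there either. The step from PTS1 to PTS2 was 0.59 log2 units (SE 0.17, limma adjusted p = 0.00918 for that pair), under the limit of 1, and Cftr was not called in PTS1 over all groups (adjusted p = 0.0931). On the scale of log2(TPM + 1) changes at this level are understated. With a pseudocount of 0.1 the PTS2 to PTS3 difference of 0.78 became 2.38 and was called.

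Elsewhere Cftr was at or under background in most groups. In DTL1 it was 1.02, 0.29 and 2.32 TPM, below the receptor 95th percentile in each of the 3 mice, where that level was 5.17 to 11.2 TPM. GL, DTL2, DTL3, ATL and OMCD likewise had 0 mice above it. In CTAL 2 of 5 mice and in DCT 1 of 3 exceeded it with 0.12 TPM or less, MTAL was listed at 0 in all 3 mice, and IMCD, CCD and CNT mice held 0.06 TPM or less. No adjacent step in the order of means was called (0 of 14; 2 with quantile normalization), and mice failed to overlap only between PTS1 and PTS2.

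Ano1 was a glomerular transcript. The 3 GL mice held 162, 147 and 186 TPM, a mean of 165 ± 19.4 (SD, n = 3), and the highest tubule mouse held 16.7. GL exceeded DTL1, the nearest group on the log2 scale, by 4.09 log2 units (SE 0.40, limma adjusted p = 3.19e-11 over every other group). Smooth muscle and pericyte markers (Acta2, Myh11, Tagln, Pdgfrb and Cnn1) also peaked in GL. All 5 were at 1 TPM or more there and summed to 479 to 683 TPM, against 7.69 to 24.8 in DTL1 and 2.66 to 5.57 in IMCD. The 5 endothelial markers summed to 2993 to 3058 TPM in GL and 2764 to 3652 in DTL1, and 4 of them (all but Plvap) had their highest group mean in GL. The part of these cells in the Ano1 level was not tested.

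Among tubule segments Ano1 had its highest means in IMCD and DTL1. IMCD mice held 3.04, 16.7 and 12.7 TPM (mean 10.8 ± 7.01, n = 3), all above the receptor 95th percentile of at most 0.453 TPM. Single pieces ranged from 0.32 to 21.0 TPM, so 1 piece was almost without it. In IMCD 1 of the 5 muscle and pericyte markers reached a mean of 1 TPM. DTL1 mice held 8.28, 11.1 and 9.57 TPM, of which 2 of 3 exceeded the receptor level of their own library. The 2 pieces of DTL1 mouse 3 gave 18.8 and 3.33 TPM. ATL held 3.79 and 2.30 TPM in mice 4 and 6, both below the receptor level, and 0 and 0.01 in mice 2 and 3.

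In the other tubule groups no mouse exceeded 1.96 TPM, and PTS3 was listed at 0 in all 3 mice. CCD mice held 0.67, 1.68, 1.08, 1.48 and 0.90 TPM, each above a receptor level of 0.15 TPM or less. Low values also exceeded the receptor level (0.095 TPM or less in these groups) in 5 of 5 mice of CTAL, 3 of 3 of DCT and of CNT and 2 of 3 of MTAL, and in 0 mice of PTS1, DTL2, DTL3, ATL and OMCD. PTS2 mice held 0.02 to 0.205 TPM, with a receptor level too close to 0 to compare. Of the 14 adjacent steps 2 were called, GL to IMCD (4.18, SE 0.40, limma adjusted p = 4.50e-12, with 44.6% of genes called between them) and DTL1 to ATL (2.28, SE 0.38, adjusted p = 2.39e-06, with 34.8%). IMCD and DTL1 overlapped and differed by less than their spread (adjusted p = 0.861). From ATL down to PTS2 each neighbour overlapped.

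**Figure D3:**
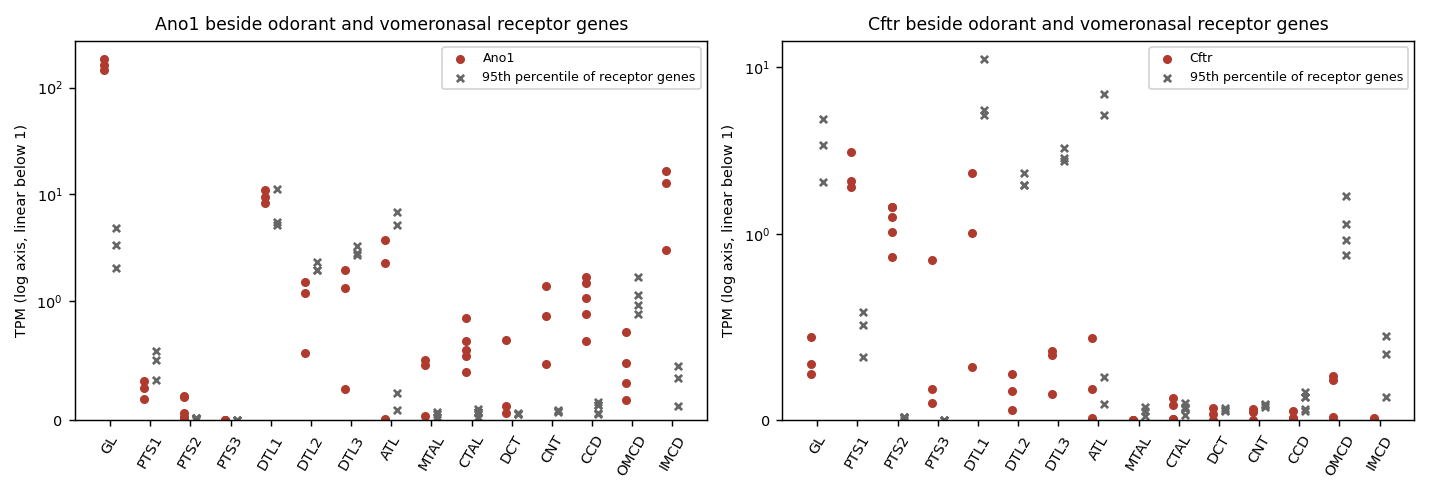
TPM of Ano1 (left) and Cftr (right) in each mouse (red points) beside the 95th percentile of odorant and vomeronasal receptor genes in the same mouse (grey crosses), on axes that are logarithmic above 1 TPM. Ano1 lies above the crosses in every mouse of GL, CTAL, DCT, CNT, CCD and IMCD and in 2 of 3 of DTL1, and Cftr lies above them in every mouse of PTS1 and below them in DTL1, while in PTS2 and PTS3 the crosses are at or near 0.

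Neighbouring segments were then compared in 15 contrasts by limma, with the share of all tested genes called in either direction given beside each count. In the proximal tubule 3 of 6 genes were called between PTS1 and PTS2 (9.57% of all genes), and Clcn2, Clcn3 (1.03, SE 0.13, adjusted p = 1.22e-08) and Clcn4 (1.25, SE 0.20, adjusted p = 1.51e-06) were all higher in PTS2. The Clcn3 call sits at the limit: PTS1 minus PTS2 was -0.99 without PTS2 mouse 1 and -0.99 with median ratios, -0.95 with a pseudocount of 5 and -0.63 with quantiles, none of them called. Between PTS2 and PTS3, 2 of 6 were called (4.7%). Clcn3 was higher in PTS2 by 1.87 (SE 0.13, adjusted p = 2.54e-15) and Clcn4 by 1.41 (SE 0.20, adjusted p = 4.16e-07). The 50 most abundant genes held 25.1% to 28.4% of TPM in PTS2 libraries and 32.5% to 41.5% in PTS1 and PTS3 libraries, where both exchangers were lower, and their part in the result was not tested. With quantile normalization the Clcn4 differences were 0.77 and 0.90 and not called.

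Into the descending limb, 3 of 6 genes were called between PTS3 and DTL1 (65.5% of all genes) and 4 of 6 between PTS3 and DTL2 (40%). Clcn2 was higher in PTS3 than in DTL1 by 1.999 (SE 0.44, adjusted p = 8.86e-05) and than in DTL2 by 1.54 (SE 0.44, adjusted p = 0.00303). The DTL1 difference was 1.61 and not called with array weights. It was 1.27 to 2.61 and still called when single mice were left out. The median of all genes was instead higher in the descending limb (PTS3 minus DTL1 -1.33, PTS3 minus DTL2 -0.71). Clcn3 was higher in DTL1 by 1.47 (SE 0.14, adjusted p = 4.50e-12) and in DTL2 by 1.45 (SE 0.14, adjusted p = 9.21e-12), and neither was called after either rescaling (PTS3 minus DTL1 -0.10 and -0.27, PTS3 minus DTL2 -0.24 and -0.47 with median ratios and quantiles). Clcn4 was higher in DTL2 by 1.21 (SE 0.22, adjusted p = 7.39e-06), a direction that turned after median ratio rescaling (PTS3 minus DTL2 0.020) and whose call was lost with quantiles (-0.61). Clcn4 was 0.82 higher in DTL1 than in PTS3 (adjusted p = 0.000799), and was called with array weights (PTS3 minus DTL1 -1.15, adjusted p = 0.0142) and without DTL1 mouse 5 (-1.20), while with median ratios the direction turned (0.56). Bsnd was 0.50 higher in DTL1 and was not called. With a pseudocount of 0.1 Bsnd was called (PTS3 minus DTL1 -1.68, adjusted p = 0.000868), and with quantiles its direction turned (0.15). That call sets PTS3 mice listed at 0 against DTL1 values of which 0 of 3 exceeded the receptor 95th percentile. Cftr was 0.68 higher in DTL1 and was called with a pseudocount of 0.1 (PTS3 minus DTL1 -2.03) and without DTL1 mouse 3 (-1.02), while with quantiles the direction turned (0.996). Ano1 passed in both, against PTS3 mice listed at 0. The DTL2 call (adjusted p = 0.0289) rested on values under 1.6 TPM and was lost when any 1 of 5 of the 6 mice was left out (the 3 PTS3 mice and DTL2 mice 1 and 2) and in 5 other alternatives.

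Within the descending limb Ano1 alone of the 6 was called between DTL1 and DTL2, with 28.2% of all genes, and was higher in DTL1 by 2.26 (SE 0.40, adjusted p = 1.75e-05). Cftr was 0.84 higher in DTL1 and was called there with a pseudocount of 0.1 (2.20, adjusted p = 0.00136) and without DTL1 mouse 3 (1.18). None of the 6 was called between DTL2 and DTL3 (9.58%). Bsnd alone was called at the turn from DTL3 to ATL (14.6%), by 10.88 log2 units (SE 0.21, adjusted p = 9.74e-36), and from ATL to MTAL (28.1%), where ATL was higher by 2.75 (SE 0.21, adjusted p = 1.06e-14). Clcn2 was also called between ATL and MTAL, as higher in MTAL, with median ratios (ATL minus MTAL -1.30, adjusted p = 0.00527), with quantiles (-1.55, adjusted p = 0.00139) and without ATL mouse 2, ATL mouse 6 or MTAL mouse 3 (omitting single mice gave -1.26 to -0.30). Where short loops turn directly into the thick limb, DTL1 and MTAL differed in 4 of 6 genes (56.6%). Bsnd was higher in MTAL by 7.77 (SE 0.23, adjusted p = 8.10e-29) and Ano1 in DTL1 by 2.90 (SE 0.40, adjusted p = 3.82e-08), which became 0.88 and was not called with quantiles. Clcn2 was higher in MTAL by 1.07 (adjusted p = 0.0276). That call was lost without DTL1 mouse 5 or MTAL mouse 1 (DTL1 minus MTAL -1.68 to -0.34 over omitted mice). It was also lost with array weights (-0.78, adjusted p = 0.418), a pseudocount of 5 (-0.60) and a block for mouse number (-0.94, adjusted p = 0.0605). Cftr was higher in DTL1 than in MTAL mice listed at 0, and that call was lost without DTL1 mouse 5 and in 6 of the other alternatives.

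From MTAL to CCD none of the 6 genes was called between neighbours. With limma this covers MTAL and CTAL (3.15% of all genes called), CTAL and DCT (4.35%), DCT and CNT (5.22%) and CNT and CCD (1.12%). The largest shifts in these 4 contrasts were Clcn3 from DCT to CNT (0.81 higher in CNT, adjusted p = 4.41e-05) and Bsnd from MTAL to CTAL (0.65 higher in CTAL, adjusted p = 0.0436), which passed on p alone. Bsnd was the 1 gene called from CCD to OMCD (12.1%), although with quantiles Ano1 was also called there (1.03 higher in CCD, adjusted p = 0.000638). Both Bsnd and Ano1 were called from OMCD to IMCD (18.6%) in opposite directions. Ano1 was higher in IMCD by 2.70 (SE 0.38, adjusted p = 1.21e-07), where no mouse held more than 1.36 TPM of Bsnd.

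**Figure D4:**
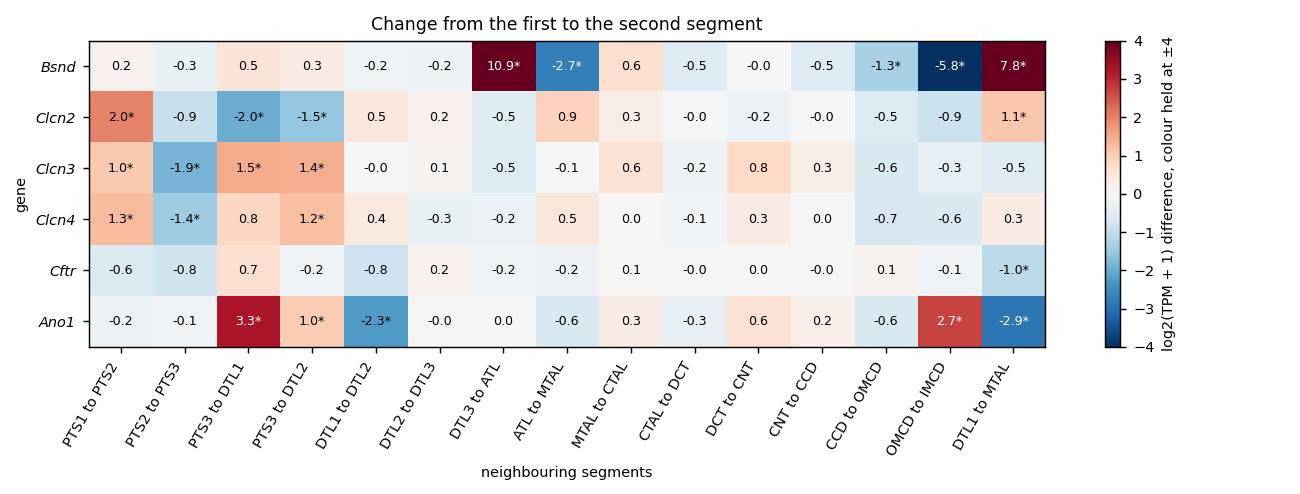
Difference in log2(TPM + 1) from the first to the second segment of each of 15 neighbouring pairs, for the 6 genes. Red means higher in the second segment, colours are held at ±4, and an asterisk marks calls (adjusted p under 0.05 and at least 1 log2 unit). The strongest cells are Bsnd at DTL3 to ATL (10.88 higher in ATL), DTL1 to MTAL (7.77 higher in MTAL) and OMCD to IMCD (5.83 higher in OMCD), and the 4 columns from MTAL to CCD hold no asterisk.

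Other genes of chloride transport give the setting. All tested members of each list given here passed the F-test, with 93.9% of all genes: 3 of 4 auxiliary subunits (Hepacam was below the filter), 5 of 5 volume-regulated channel subunits, 9 of 9 other anoctamins, 7 of 8 bestrophins and CLIC proteins (Best2 was below it), 8 of 8 CFTR partners, 11 of 11 chloride and potassium partners and 5 of 5 exchangers of intercalated cells. Median ranges were 1.74, 3.997, 2.02, 3.66, 2.82, 7.58 and 9.71 log2 units in that order. The highest group means were read in TPM, by list. Of the subunits, Tmem9b and Tmem9, accessory proteins of endosomal ClC exchangers, reached 233 ± 10.9 in DTL3 and 183 ± 10.2 in CNT (n = 3 each). Lrrc8d and Lrrc8c, parts of the swelling-activated channel, reached 107 ± 13.9 in PTS2 (n = 5) and 57.4 ± 4.46 in GL (n = 3).

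Ano1 was not the only anoctamin in glomeruli. Ano6, a lipid scramblase, led its list with 112 ± 4.91 TPM in DTL3 and was at 109 ± 9.27 in GL (n = 3 each). Ano10 reached 66.4 ± 4.80 in GL (n = 3), and both were below the 165 TPM of Ano1 in GL. Clic3 reached 2763 ± 255 TPM in GL and Clic4 1071 ± 62.8 in DTL3 (n = 3 each). Of the scaffolds that bind CFTR, Pdzk1 reached 1994 ± 123 TPM in PTS2 (n = 5) and Slc9a3r2 1467 ± 99.7 in GL (n = 3). In PTS1, where Cftr had its highest mean, Pdzk1 was at 1557 ± 89.3 and Slc9a3r2 at 9.34 ± 1.22 TPM (n = 3 each). Fxyd2, a regulator of the sodium pump, reached 24305 ± 4385 TPM in MTAL (n = 3) and Slc12a1, the sodium, potassium and chloride cotransporter of the thick limb, 6135 ± 844 in CTAL (n = 5). Slc26a4 (pendrin) reached 2475 ± 322 TPM in CNT (n = 3) and Slc4a1 (the anion exchanger AE1) 1582 ± 258 in OMCD (n = 4).

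The lists were also counted in the 6 neighbouring contrasts in which 1 or 2 of the 6 genes were called, beside the share of all genes called in each direction. Between PTS2 and PTS3 (3.94% of all genes higher in PTS2 and 0.755% in PTS3), 5 of 11 chloride and potassium partners, 2 of 5 volume-regulated channel subunits, 1 of 9 anoctamins, 1 of 7 bestrophins and CLIC proteins and 1 of 8 CFTR partners were higher in PTS2, with 0 auxiliary subunits, 0 intercalated exchangers and 0 genes of any of these lists higher in PTS3. Between DTL1 and DTL2 (25.2% higher in DTL1 and 2.99% in DTL2), 4 of 8 CFTR partners, 3 of 7 bestrophins and CLIC proteins, 2 of 5 volume-regulated subunits, 2 of 11 partners, 1 of 9 anoctamins and 1 of 5 intercalated exchangers were higher in DTL1. In DTL2 5 of 11 partners, 2 bestrophins or CLIC proteins, 1 CFTR partner, 1 auxiliary subunit and 1 intercalated exchanger were higher. Between DTL3 and ATL (11.8% higher in DTL3 and 2.86% in ATL), 4 of 11 partners, 3 of 5 volume-regulated subunits, 3 of 7 bestrophins and CLIC proteins, 2 of 9 anoctamins, 2 of 8 CFTR partners and 1 of 5 intercalated exchangers were higher in DTL3, and 1 partner (Slc12a1) and 1 bestrophin (Best1) in ATL. Between ATL and MTAL (22.6% higher in ATL and 5.43% in MTAL), 7 of 11 partners were higher in MTAL and 1 (Slc12a2) in ATL. There 2 of 5 volume-regulated subunits, 2 of 8 CFTR partners, 1 of 7 bestrophins and CLIC proteins and 1 of 9 anoctamins were higher in ATL, and 2 anoctamins and 1 of 5 intercalated exchangers in MTAL. Between CCD and OMCD (1.73% higher in CCD and 10.4% in OMCD), the intercalated exchangers split, with 2 of 5 higher in CCD (Slc26a4 and Slc4a9) and 2 in OMCD (Slc4a1 and Slc26a7). There 2 of 11 partners and 1 of 8 CFTR partners were higher in CCD, and 3 of 7 bestrophins and CLIC proteins, 1 of 5 volume-regulated subunits and 1 partner in OMCD. Between OMCD and IMCD (15.2% higher in OMCD and 3.4% in IMCD), 5 of 5 intercalated exchangers, 4 of 11 partners, 3 of 7 bestrophins and CLIC proteins, 2 of 5 volume-regulated subunits, 1 of 3 auxiliary subunits, 1 of 8 CFTR partners and 1 of 9 anoctamins were higher in OMCD. In IMCD 2 partners, 1 bestrophin and 1 volume-regulated subunit were higher. Over the 6 genes the median of OMCD minus IMCD was 0.47, against 0.32 over all genes tested.

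Likeness of pattern was read as Pearson's r of the 15 group means on the log2 scale among 12071 genes with a highest group mean of at least 10 TPM, as a description over points that share libraries. For Bsnd the closest were Tfap2b (0.973), Sostdc1 (0.944) and Tent5b (0.943). Tfap2b, a transcription factor of the distal nephron, was highest in ATL at 212 TPM, as Bsnd was. For Clcn2 they were Mlycd (0.915), P4hb (0.896) and Vwa8 (0.895), each highest in PTS2. For Clcn3 they were Ppp2ca (0.908), Rpn1 (0.902) and AU040320 (0.900), and for Clcn4 Urgcp (0.945), Xylt2 (0.907) and Sppl2b (0.889). For Cftr they were Nox4 (0.957), Trim63 (0.944) and Gna14 (0.939), each highest in PTS1, where Nox4, an NADPH oxidase, reached 345 TPM. For Ano1 they were Ccl5 (0.976), Agrp (0.966) and Gucy1a2 (0.956), each highest in GL at 19.4, 11.3 and 10.7 TPM. Among the 6 genes themselves the closest pair was Clcn3 and Clcn4 (0.61) and the most opposed Bsnd and Cftr (-0.57).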

How the data were processed

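Per the labels' protocols, polyadenylated RNA of dissected pieces was converted with the SMARTer V4 ultra-low input kit and Nextera XT libraries. STAR 2.5.4a and RSEM 1.3.0 are named in the submitters' processing notes. Genome build and annotation are not given in the sources used here. The authors deposited TPM (column sums 999998.6 to 1000190.3), which keep no depth, so depth is unknown and no counting interval is given. Columns were matched to samples by title, except 1 PTS2 column whose piece letter fits no title. It was used as a PTS2 replicate of its own, shown without a number. The authors' segment means and 3 single-cell samples were not used here. Plain means of the replicate columns matched the authors' means in 13 of 14 segments. In PTS1 they were off in 17956 genes, and the reason is not in the sources used here.

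Levels are means of a mouse's pieces, then mean ± SD over mice. For tests, log2(TPM + 1) was averaged over pieces and fitted for all 15 groups with limma 3.58.1 (R 4.3.3, eBayes with trend) for genes at 1 TPM or more in at least 3 mice. Tests were two-sided, except that over every other group, and p-values were Benjamini-Hochberg adjusted over 33793 genes. Calls needed an adjusted p under 0.05 and, except for the F-test, 1 log2 unit. Scripts were tested on simulated data. P-values measure the spread between mice.

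The 6 genes, the lists and the rule for other named genes (the 2 highest of each list, the 3 most alike, list members called in a contrast) were chosen with earlier results of these data known. Alternatives were other pseudocounts, filters, scalings, weights, averaging, a block for mouse number and omitted mice or groups. Mouse numbers were not taken to pair samples, since no label says so. The list of other ClC genes is not reported here.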

Additional observations from a re-analysis of the deposited data

Results flagged for a closer look

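Cftr in CCD was 0.05 TPM in mouse 2, against 0.01, 0.01, 0 and 0 TPM in the other 4 mice, a gap of 0.8 of the whole range where Dixon's limit for 5 samples is 0.71. It was the 1 such result among 30 groups tested, and chance gives about 1 in 20. All 5 values are under the 95th percentile of receptor genes in their own libraries.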

How the results depend on the processing

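The F-test calls of the 6 genes, the call of Bsnd in ATL (margin 1.75 to 2.68) and that of Ano1 in GL (3.46 to 4.24) held in each alternative that could give them, and leaving out single mice changed 19 of 3657 results. Counts below are neighbouring contrasts called of 15 and, as steps, adjacent levels called of 14; where not shown, the cause was not tested. With median ratios the Clcn3 margin in CCD was -0.34, the Clcn4 margin in GL -0.99, Clcn3 had 1 contrast (4 in the main analysis) and 2 steps (0), Clcn4 1 step (0), Clcn2 2 steps (0), Clcn3 DTL1 minus MTAL was -0.23, and Clcn4 PTS3 minus DTL1 and minus DTL2 were 0.56 and 0.020. With quantile normalization Bsnd had 5 steps (3), Clcn2 2, Cftr 2 (0), Clcn3 1 contrast and Clcn4 0 (3), while Bsnd and Cftr PTS3 minus DTL1 were 0.15 and 0.996, Clcn3 DTL1 minus MTAL -0.0988 and Ano1 ATL minus MTAL -0.34. The last was -0.36 without ATL mice 4 and 6 and -0.25 with array weights. With a pseudocount of 0.1 Bsnd had 8 contrasts (5), Cftr 4 (1) and 1 step. Cftr had 0 contrasts with a pseudocount of 5, all 93 samples as independent, median ratios or array weights. Omitting the GL and DTL1 groups also gave 0 by construction, since its 1 called contrast was DTL1 against MTAL. Clcn2 had 2 contrasts (4) with array weights. Without GL and DTL1 Clcn2 had 2 contrasts, and Ano1 had 2 (5) and 0 steps (2). Omitting those groups removes their contrasts and steps by construction, so these counts are no sign of sensitivity. Of the 3 most alike genes Cftr kept 1 and Ano1 0 with a pseudocount of 0.1. With Spearman's rho Bsnd, Cftr and Ano1 kept 0 and Clcn3 and Clcn4 1. Leaving out 1 mouse gave 0 to 1 steps for Clcn2 (1 without DTL1 mouse 5), 0 to 3 contrasts for Cftr (3 without DTL1 mouse 3, 0 without mouse 5) and 0 to 1 steps (1 without DTL1 mouse 3).

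Mouse number as a replicate block, which drops the unnumbered PTS2 mouse, left 66 of 69 results unchanged, ended the DTL1 minus MTAL calls of Clcn2 (-0.94, adjusted p = 0.0605) and Cftr (0.99) and so took Cftr from 1 contrast to 0. Same-numbered mice of different segments had a median correlation of deviations of 0.000185, with 19 of 290 pairs over 0.1, against 31 of 968 pairs of different numbers. The share over 0.1 was thus larger among same-numbered pairs, while the median for different numbers was 0.000366. Whether a number is 1 animal across segments is not in the labels, and a pairing of some samples remains possible. The filter at 5 TPM gave no value for Cftr. Depth is unknown, so a TPM near 0 does not show absence.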
